A study of Mus musculus with 12 samples.

Results

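The genes described here are 70 cadherin, protocadherin and immunoglobulin adhesion genes, taken from a table of 4859 coding genes by their symbols. The names cover the cadherins (Cdh, Cdhr), protocadherins (Pcdh), giant cadherins (Celsr, Fat, Dchs), Ctnn genes, nectins (Pvrl), Cadm, the L1 and NCAM group, IgLON (Lsamp, Ntm, Opcml, Negr1), Igsf and Kirrel genes, and the leucine-rich repeat and neuroligin genes of the synapse (Nlgn, Lrrtm, Flrt, Slitrk, Lrfn). Each was measured by bulk RNA-seq in 12 libraries of FACS-sorted cells from mouse cerebral cortex, with 2 libraries for each gate (Ebf2-EGFP+ or Ebf2-EGFP-) and embryonic stage (E11.5, E13.5 or E15.5). All 6 groups came from Tg(Ebf2-EGFP)FB58Gsat embryos, in which a transgene carrying Ebf2 regulatory sequence drives EGFP, so the groups differ in EGFP and stage and share the genotype. Several embryos were pooled for each sort, and the study treats both libraries of a group as biological replicates. The Ebf2-EGFP+ gate takes preplate neurons at the earliest stage and Cajal-Retzius (CR) neurons, the Reln-secreting cells of the marginal zone, later on, while the Ebf2-EGFP- gate takes all other cells, from progenitors to cortical plate neurons. The table lists only genes that the authors had called differential in these libraries, so relatives of the 70 genes outside it are not analysed here and every percentage below is a share of that list.

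Cadherins are calcium-dependent adhesion proteins that bind their own kind on the neighbouring cell, and their cytoplasmic tails hold catenins, which link the contact to actin. Immunoglobulin adhesion proteins such as L1, NCAM, nectins and Cadm proteins act without calcium, bind like or unlike partners, and are known from axon growth, bundling and synapse formation. In the early cortex, radial glia are held together at the ventricular surface by cadherin and nectin junctions, whereas neurons that leave this epithelium exchange these contacts for adhesion proteins of axons and dendrites.

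The sort was checked with marker lists. The 7 CR markers summed to 294 to 319, 178 to 231 and 524 to 1087 FPKM in the Ebf2-EGFP+ libraries at the 3 stages, against 10.7 to 11.46, 6.56 to 7.05 and 13.8 to 18.1 FPKM in the Ebf2-EGFP- libraries. All 7 were higher in the Ebf2-EGFP+ gate at each stage. The E15.5 sum was mostly Reln (399 and 925 FPKM). From E11.5 to E15.5 in Ebf2-EGFP+ cells, 2 of the 7 rose, and Ebf2 (61.2 and 49.1 to 2.83 and 5.14 FPKM), Ebf3 and Lhx1 fell. The mean of the 7 as log2(FPKM + 1) was 5.25 to 5.335 there at E11.5 and 4.575 to 5.02 at E15.5. All 8 radial glia markers and all 5 cell cycle markers were on the lower side in the Ebf2-EGFP+ gate, whatever the stage. The 3 intermediate progenitor markers summed to 182 to 187 FPKM in Ebf2-EGFP+ and 32.3 to 39.2 FPKM in Ebf2-EGFP- libraries at E11.5, and lay the other way round at E15.5 (8.32 to 16.8 against 89.8 to 172 FPKM). Eomes made up most of the E11.5 sum in the Ebf2-EGFP+ gate (142 and 139 FPKM). It was the only 1 of the 3 called higher at E11.5 by the test below, and all 3 were lower at E15.5. The 7 ganglionic eminence or interneuron markers were all lower in the Ebf2-EGFP+ gate at E11.5, where they summed to 9.47 to 12.5 against 171 to 227 FPKM, and 6 of 7 were lower at each later stage. Cortical plate markers were not limited to either gate. Their mean on the scale log2(FPKM + 1) rose in Ebf2-EGFP- libraries between E11.5 (2.65 to 2.77) and E15.5 (6.12 to 6.63), and was 4.40 to 4.72 and 6.39 to 6.89 in Ebf2-EGFP+ libraries. In bulk RNA of sorted cells, fewer cells of a type and less RNA per cell cannot be told apart. FPKM summed over the table ranged from 111136 to 146703 per library, and no member was at 0 in any library.

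Adhesion genes were mostly higher in Ebf2-EGFP+ cells, above all at E11.5. Differences are given as Ebf2-EGFP+ minus Ebf2-EGFP- on the scale log2(FPKM + 1) with their standard error (SE), and a gene is called higher or lower where limma gave an adjusted p under 0.05 over all 4859 genes. At E11.5, 47 of 70 members (67.1%) were higher, against 36.8% of all genes, and 12 (17.1%) were lower, against 44.9%. The median difference was 0.86 for the members and -0.19 for all genes. At E13.5, 43 members (61.4%) were higher, against 32.1% of all genes, and 12 were lower, against 43.5%, with medians of 0.69 and -0.19. By E15.5, 29 members (41.4%) were higher, against 25.8% of all genes, and 12 were lower, against 31.6%, with medians of 0.34 and -0.11. Scaling the libraries to a common median ratio moved the median of all genes up by 0.19, 0.19 and 0.13 at the 3 stages, and 47, 48 and 36 members were then higher and 9, 11 and 11 lower, against 40.5%, 39.1% and 32.9% of all genes higher and 40.8%, 36.1% and 27.2% lower after the same scaling. In the plot of the members by family, the L1, NCAM and CHL1 genes lie furthest to the Ebf2-EGFP+ side at E11.5, and the Ctnn genes, nectins and giant cadherins spread to both sides.

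**Figure D1:**
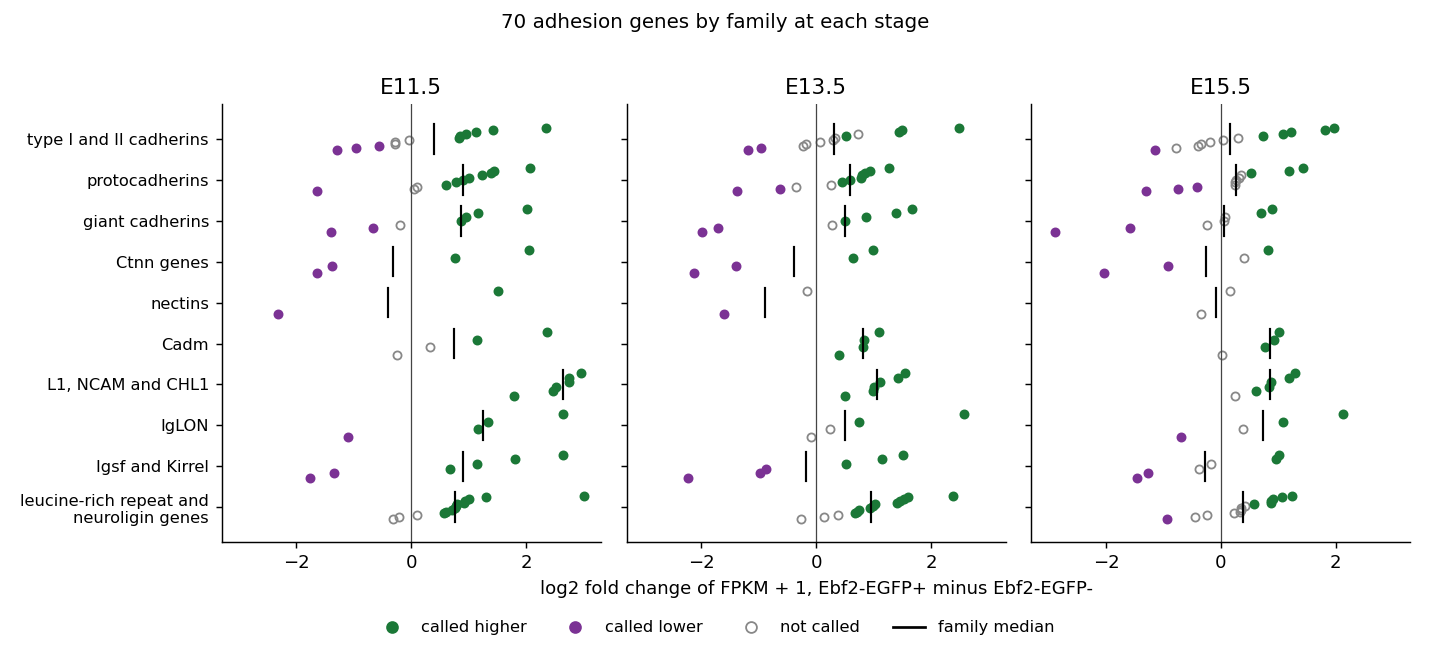
Difference between the populations (x axis, log2 of FPKM + 1, Ebf2-EGFP+ minus Ebf2-EGFP-) for each of the 70 members (points), in rows by family and in panels by stage. Filled points are genes called at an adjusted p under 0.05 (green higher, purple lower), open points are not called, and black bars are family medians. The bar of the L1, NCAM and CHL1 row moves between E11.5 (2.64) and E15.5 (0.86).

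The L1, NCAM and CHL1 genes had the highest family median. These are neural immunoglobulin adhesion proteins of axons, and L1cam, Nrcam, Nfasc and Chl1 form the L1 family proper, which binds ankyrin inside the cell. All 6 were higher in Ebf2-EGFP+ cells at E11.5, against 36.8% of all genes, with a highest difference of 2.96 and a median of 2.64. L1cam (chrX:73853778-73896105, minus strand), the founder of the family, stood at 67 and 76.3 FPKM in the Ebf2-EGFP+ libraries and 7.79 and 8.86 FPKM in the Ebf2-EGFP- libraries at E11.5. Both Ebf2-EGFP+ libraries lay far above both others (log2 fold change 2.96 ± 0.19, adjusted p = 2.65e-07). Nrcam (chr12:44328885-44601964, plus strand), which is found at nodes and growth cones, stood at 60.4 and 56.1 FPKM in the Ebf2-EGFP+ libraries and 8.22 and 7.41 FPKM in the Ebf2-EGFP- libraries (log2 fold change 2.75 ± 0.15, adjusted p = 6.55e-08). Ncam2, an NCAM relative known from olfactory axons, stood at 11.6 and 10.7 FPKM in the Ebf2-EGFP+ libraries and 0.716 and 0.903 FPKM in the Ebf2-EGFP- libraries (log2 fold change 2.75 ± 0.19, adjusted p = 3.87e-07). Chl1, the close homologue of L1, stood at 17.3 and 17.3 FPKM in the Ebf2-EGFP+ libraries and 1.99 and 2.38 FPKM in the Ebf2-EGFP- libraries (log2 fold change 2.52 ± 0.25, adjusted p = 4.03e-06). Ncam1, the neural cell adhesion molecule itself and the family's most abundant transcript, had the smallest difference of the 6, with 77.2 and 71.6 against 20.1 and 21.4 FPKM (log2 fold change 1.80 ± 0.15, adjusted p = 1.16e-06). The libraries of the populations did not overlap for any of the 6, which holds for most of the list: of all 4859 genes, 2067 lay above and 2433 below without overlap.

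This difference narrowed in all 6 genes. At E13.5 all 6 were still higher, at a median of 1.06, and at E15.5 5 of 6 were, at a median of 0.86. Of all genes, 32.1% and 25.8% were higher at these stages. At E15.5, L1cam stood at 127 and 116 FPKM in the Ebf2-EGFP+ libraries and 61.4 and 70.7 FPKM in the Ebf2-EGFP- libraries (log2 fold change 0.87 ± 0.19, adjusted p = 0.00247). The change of the difference from E11.5 to E15.5 was called lower for each gene and ranged from -2.09 for L1cam to -1.45 for Ncam2. For 5 of the 6, the Ebf2-EGFP- level rose over these stages: Chl1 by 3.83 ± 0.25, adjusted p = 1.65e-07, from 1.99 and 2.38 FPKM to 40.5 and 48.5 FPKM, and L1cam by 2.85 ± 0.19, adjusted p = 1.8e-07. Ncam2 took another course. Its Ebf2-EGFP- level was 0.716 and 0.903 FPKM at E11.5 and 1.36 and 1.13 FPKM at E15.5 (adjusted p = 0.139), while it fell in Ebf2-EGFP+ cells from 11.6 and 10.7 to 4.25 and 4.77 FPKM (fell by 1.14 ± 0.19 on the log2 scale, adjusted p = 0.000184). After scaling the libraries to a common median ratio, the rise of Ncam2 in Ebf2-EGFP- cells was called too. Ncam1 no longer passed the test at E15.5, with 160.3 and 144 against 125 and 129.7 FPKM (log2 fold change 0.25 ± 0.15, adjusted p = 0.165), but it was called higher there after the same scaling. The E15.5 calls of Chl1 and Nfasc rest on both libraries, since without Ebf2-EGFP+ replicate 2 they came to 0.71, adjusted p = 0.0845 and 0.47, adjusted p = 0.157, and without Ebf2-EGFP- replicate 1 to 0.72, adjusted p = 0.0807 and 0.35, adjusted p = 0.239. The Ncam1 call at E13.5 was likewise lost without replicate 1 of either population (0.43, adjusted p = 0.0638 and 0.34, adjusted p = 0.076). The rise in Ebf2-EGFP- cells went with the rise of the cortical plate markers given above, and with lower radial glia markers there at E15.5 (4.66 to 5.53 on the same scale) than at E11.5 (6.55 to 6.74), whose part in the result was not tested.

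**Figure D2:**
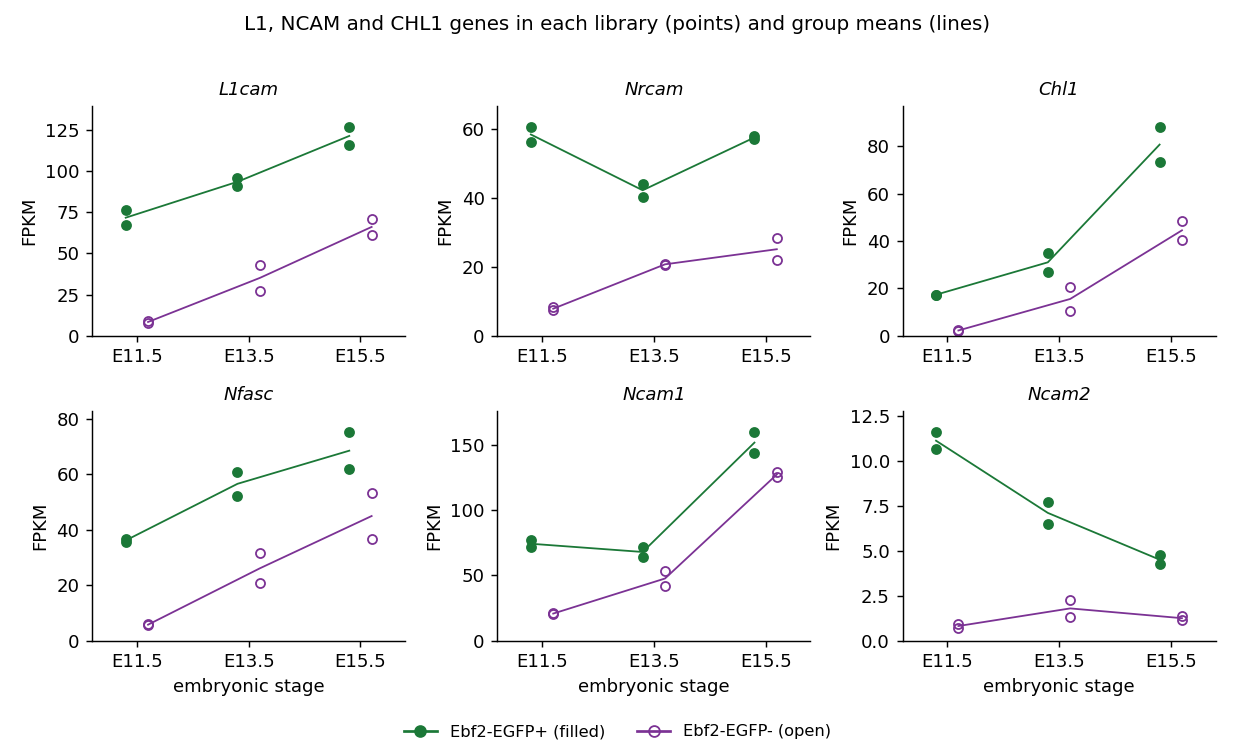
FPKM of the 6 L1, NCAM and CHL1 genes (y axes, from 0, a scale for each gene) at each stage. Points are libraries, filled for Ebf2-EGFP+ and open for Ebf2-EGFP-, and lines join group means. The open points of L1cam climb from 7.79 and 8.86 to 61.4 and 70.7 FPKM towards the filled ones, and for Ncam2 it is the filled points that come down.

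Of the 70 members, 53 had a promoter entry in the RefSeq table used (GRCm38.p6), with 62 windows in all. The 250 bases before the start were searched on both strands for TCCC and GGGA parted by any 2 bases, a core of the sites bound by EBF proteins, the family of the factor whose transgene marks these cells, and for the E-boxes CAGCTG and CAGATG, which proneural factors bind. The EBF core was present in 2 of 62 windows (3.23%) of the members, and in 256 of 32851 windows (0.779%) of all. The 2 genes, Cadm3 and Chl1, were higher at all 3 stages, but members of that kind held 26 of the 62 windows. The E15.5 call of Chl1 was lost without single libraries, as given above. With 2 matches, no relation between the core and the calls can be read. CAGCTG was present in 6 of 62 windows (9.68%) of the members and 4271 of 32851 windows (13%) of all, and CAGATG in 8 of 62 windows (12.9%) and 4745 of 32851 windows (14.4%). A match is a description of the letters only, and the members' windows include several starts of the same gene. The windows of Cadm3 and Chl1 are printed for the EBF core, that of Lrfn5 for CAGCTG, and that of Nrcam, a relative of Chl1, because none of these motifs is in it. They read 5′ to 3′ on the gene's strand, with matches in capitals.
Cadm3 (chr1:173367696-173367945, minus strand): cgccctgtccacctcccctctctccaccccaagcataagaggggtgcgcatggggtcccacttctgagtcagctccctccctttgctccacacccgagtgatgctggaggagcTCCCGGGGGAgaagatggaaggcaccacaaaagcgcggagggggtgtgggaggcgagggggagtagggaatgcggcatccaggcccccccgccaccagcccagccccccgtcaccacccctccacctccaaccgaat
Chl1 (chr6:103510626-103510875, plus strand): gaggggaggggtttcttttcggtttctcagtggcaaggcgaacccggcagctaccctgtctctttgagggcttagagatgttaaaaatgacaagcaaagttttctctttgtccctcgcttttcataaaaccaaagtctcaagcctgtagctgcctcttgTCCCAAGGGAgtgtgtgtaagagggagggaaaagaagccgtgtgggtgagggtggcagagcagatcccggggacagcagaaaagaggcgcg
Lrfn5 (chr12:61522917-61523166, plus strand): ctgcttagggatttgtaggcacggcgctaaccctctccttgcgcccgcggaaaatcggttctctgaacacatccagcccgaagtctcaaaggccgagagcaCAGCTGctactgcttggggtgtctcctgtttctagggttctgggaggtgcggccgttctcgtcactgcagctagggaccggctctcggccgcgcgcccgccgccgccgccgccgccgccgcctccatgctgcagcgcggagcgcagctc
Nrcam (chr12:44328635-44328884, plus strand): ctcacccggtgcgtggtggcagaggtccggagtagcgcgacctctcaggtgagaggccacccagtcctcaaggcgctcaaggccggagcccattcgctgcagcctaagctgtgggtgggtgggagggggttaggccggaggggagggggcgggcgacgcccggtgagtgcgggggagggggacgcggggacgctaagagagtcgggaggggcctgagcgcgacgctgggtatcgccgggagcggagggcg
Distances are from the RefSeq start just after each window, which for Lrfn5 lies downstream of the GENCODE gene start given with its values. For Chl1 the GENCODE gene starts at chr6:103510586, so its whole window and the EBF core in it lie inside the GENCODE gene. The EBF core starts 137 bases before the Cadm3 start and 91 bases before the Chl1 start, and CAGCTG starts 149 bases before the Lrfn5 start.

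The leucine-rich repeat and neuroligin genes encode postsynaptic and axonal membrane proteins that organise synapses by binding neurexins, receptor phosphatases or latrophilins across the cleft. Of 14, 11 were higher and 3 not called at E11.5 and again at E13.5, and 6 were higher, 1 lower and 7 not called at E15.5, with medians of 0.77, 0.96 and 0.38. The higher share was 78.6% at E11.5 and E13.5 and 42.9% at E15.5, against 36.8%, 32.1% and 25.8% of all genes. Lrfn5 (chr12:61523150-61858342, plus strand), a SALM protein that binds LAR-type phosphatases, had the largest difference of any member at E11.5, with 12.1 and 11.2 FPKM in the Ebf2-EGFP+ libraries and 0.624 and 0.507 FPKM in the Ebf2-EGFP- libraries (log2 fold change 3.01 ± 0.23, adjusted p = 7.77e-07). At E13.5 it was at 36 and 37 against 4.81 and 7.86 FPKM (log2 fold change 2.39 ± 0.23, adjusted p = 8.7e-06), and at E15.5 at 20.7 and 26.7 against 7.54 and 11.7 FPKM (log2 fold change 1.24 ± 0.23, adjusted p = 0.000916). It thus stayed higher while its difference fell (change of the difference -1.78 ± 0.33, adjusted p = 0.00086). The neurexin ligands Lrrtm1 and Lrrtm4 were higher at all 3 stages. Lrrtm1 stood at 4.67 and 4.75 against 2.3 and 2.45 FPKM at E11.5 and 28.1 and 20.2 against 13.8 and 11.55 FPKM at E15.5, and Lrrtm4 at 1.53 and 1.66 against 0.317 and 0.421 FPKM and 7.58 and 6.53 against 2.69 and 2.99 FPKM. Nlgn1, the neuroligin of excitatory synapses, also was higher throughout, between E11.5 (5.15 and 4.6 against 3.16 and 2.75 FPKM) and E15.5 (18.3 and 19.8 against 9.71 and 10.2 FPKM). All of these rose over the stages in both populations, Lrrtm1 by 2.12 in Ebf2-EGFP+ and 2.02 in Ebf2-EGFP- cells and Nlgn1 by 1.77 and 1.47, and the change of their difference did not pass the test (adjusted p = 0.726 and 0.246). Nlgn2, the neuroligin of inhibitory synapses and the most abundant of the 14, was higher at E11.5 (58.8 and 59.9 against 27.5 and 30.8 FPKM) and E13.5, and at E15.5 was at 74.7 and 67.3 against 57.6 and 64.2 FPKM (log2 fold change 0.22 ± 0.17, adjusted p = 0.294). The Flrt genes, which encode ligands of latrophilins and Unc5 receptors, did not move together. Flrt2 was higher at E13.5 (25.1 and 20.4 against 6.6 and 7.86 FPKM, log2 fold change 1.52 ± 0.19, adjusted p = 3.97e-05), and at E15.5 only after median-of-ratios scaling. Flrt3 was the family's only lower call, at E15.5 (7.28 and 9.36 against 18.4 and 15.3 FPKM, log2 fold change -0.94 ± 0.17, adjusted p = 0.000668).

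IgLON proteins are GPI-anchored immunoglobulin proteins of neuronal surfaces, and the 4 genes behaved differently. Opcml (chr9:27790775-28925410, plus strand) rose in both populations and stayed higher in Ebf2-EGFP+ cells. It was at 2.42 and 2.37 FPKM in the Ebf2-EGFP+ libraries and 0.505 and 0.522 FPKM in the Ebf2-EGFP- libraries at E11.5, at 10.1 and 12.4 against 0.841 and 1.3 FPKM at E13.5, then 48.5 and 61.1 against 9.86 and 13.9 FPKM at E15.5. The difference was 1.16 ± 0.20, adjusted p = 0.000236 at E11.5, 2.57 ± 0.20, adjusted p = 3.65e-06 at E13.5, then 2.13 ± 0.20, adjusted p = 9.5e-06 at E15.5. Both Ebf2-EGFP+ libraries lay above both others at each stage, as for 2067, 1902 and 1688 of all 4859 genes. Its rise from E11.5 to E15.5 was 4.03 ± 0.20, adjusted p = 5.3e-08 in Ebf2-EGFP+ and 3.07 ± 0.20, adjusted p = 1.67e-07 in Ebf2-EGFP- cells. The widening of its difference (change 0.96 ± 0.29, adjusted p = 0.0135) was lost with a pseudocount of 0.1 (0.19, adjusted p = 0.671) and without E15.5 Ebf2-EGFP+ replicate 2 (0.80, adjusted p = 0.0544). Negr1 (chr3:156561794-157316445, plus strand) changed sides. It stood at 27.9 and 24.7 FPKM in the Ebf2-EGFP+ libraries and 3.5 and 3.27 FPKM in the Ebf2-EGFP- libraries at E11.5 (log2 fold change 2.64 ± 0.19, adjusted p = 5.27e-07) and at 9.02 and 11.9 against 15.51 and 19.4 FPKM at E15.5 (log2 fold change -0.69 ± 0.19, adjusted p = 0.00874). The change of its difference was the largest among the members, -3.33 ± 0.27, adjusted p = 5.55e-06, with a fall of 1.26 in Ebf2-EGFP+ cells and a rise of 2.07 in Ebf2-EGFP- cells. Its lower call at E15.5 was lost without Ebf2-EGFP+ replicate 1 (-0.51, adjusted p = 0.0803) or Ebf2-EGFP- replicate 2 (-0.54, adjusted p = 0.063). Lsamp, the limbic system-associated protein, went the other way, starting at 1.65 and 1.16 against 4.15 and 4.08 FPKM at E11.5 (log2 fold change -1.10 ± 0.36, adjusted p = 0.0138) and reaching 5.85 and 13.9 against 2.27 and 5.91 FPKM at E15.5 (log2 fold change 1.09 ± 0.36, adjusted p = 0.0221). The E15.5 libraries of Lsamp overlapped, since the lower Ebf2-EGFP+ value lies just under the higher Ebf2-EGFP- value, and the call was lost without Ebf2-EGFP+ replicate 2 (0.53, adjusted p = 0.225) or Ebf2-EGFP- replicate 1 (0.55, adjusted p = 0.22). Its E11.5 call was lost after median-of-ratios scaling (-0.88, adjusted p = 0.0518) and without Ebf2-EGFP+ replicate 2 or either Ebf2-EGFP- library (adjusted p between 0.0512 and 0.0858), whereas the change of its difference (2.18 ± 0.51, adjusted p = 0.00346) kept its call in every alternative. Ntm, neurotrimin, was higher at E11.5 and E13.5 (11 and 9.12 against 3.09 and 3.63 FPKM and 12.5 and 14.1 against 5.37 and 10.4 FPKM), and its E13.5 call was lost without Ebf2-EGFP- replicate 1 (0.32, adjusted p = 0.338) and without either Ebf2-EGFP+ library.

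**Figure D3:**
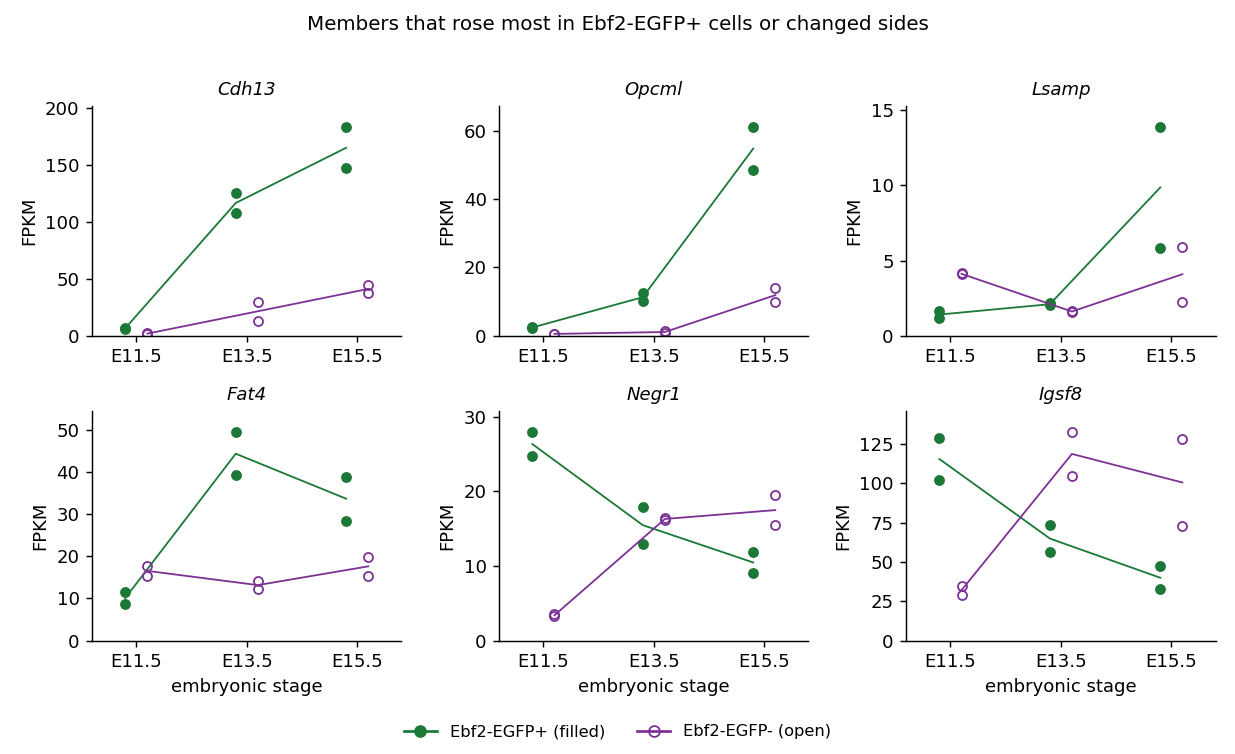
FPKM (y axes, from 0, a scale for each gene) of the members that rose most in Ebf2-EGFP+ cells (Cdh13, Opcml) and of those called on opposite sides at E11.5 and E15.5 (Lsamp, Fat4, Negr1, Igsf8). Points are libraries (filled Ebf2-EGFP+, open Ebf2-EGFP-) and lines join group means. The lines of Negr1 and Igsf8 cross downward from the Ebf2-EGFP+ side, and those of Lsamp and Fat4 cross upward.

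Cadm genes encode the SynCAM proteins, immunoglobulin adhesion proteins of axons and synapses. All 4 were higher at E13.5 and 3 of 4 at E15.5, against 32.1% and 25.8% of all genes. Cadm3 was higher at each stage, with 45.8 and 48.3 against 8.16 and 8.45 FPKM at E11.5 (log2 fold change 2.37 ± 0.15, adjusted p = 2.83e-07) and 89.8 and 97.8 against 45.8 and 51.9 FPKM at E15.5 (log2 fold change 0.93 ± 0.15, adjusted p = 0.000396). Cadm1 showed no call at E11.5, with 30.9 and 27.6 against 36.9 and 32.5 FPKM (lower with the replicate number as a block, adjusted p = 0.0389), and was higher at E15.5, with 88.4 and 72.9 against 44.7 and 34.8 FPKM (log2 fold change 1.00 ± 0.16, adjusted p = 0.000282). It rose by 1.43 ± 0.16, adjusted p = 9.26e-06 in Ebf2-EGFP+ cells, and its change in Ebf2-EGFP- cells was 0.18 ± 0.16, adjusted p = 0.288, called as a rise only after median-of-ratios scaling. Cadm4, the family's most abundant member, was higher at E11.5 (97.4 and 84.7 against 42.1 and 38.7 FPKM, log2 fold change 1.15 ± 0.14, adjusted p = 1.68e-05) and was 221 and 187 against 203 and 198 FPKM at E15.5 (log2 fold change 0.02 ± 0.14, adjusted p = 0.911). Cadm2 rose by 2.199 in Ebf2-EGFP+ and 1.77 in Ebf2-EGFP- cells, from 1.53 and 1.23 against 0.994 and 0.786 FPKM to 8.55 and 11.4 against 3.87 and 7.49 FPKM. The calls of Cadm2 at E13.5 and E15.5 and of Cadm4 at E13.5 did not outlast leaving out single libraries, and without Ebf2-EGFP- replicate 1 Cadm2 at E15.5 came to 0.36, adjusted p = 0.216 and Cadm4 at E13.5 to 0.34, adjusted p = 0.0966.

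The 12 Cdh and Cdhr genes were split, with 6 higher and 3 lower at E11.5, 4 higher and 2 lower at E13.5 and 5 higher and 1 lower at E15.5. The higher share was 50%, 33.3% and 41.7%, against 36.8%, 32.1% and 25.8% of all genes, so that at E13.5 was near the share of all genes. The lower share was 25%, 16.7% and 8.33%, against 44.9%, 43.5% and 31.6%. Cdh13 (chr8:118283733-119324921, plus strand) encodes T-cadherin, which is anchored by GPI and lacks the tail that binds catenins. It had the largest rise of any member in both populations. At E11.5 it was at 5.97 and 7.11 FPKM in the Ebf2-EGFP+ libraries and 1.71 and 1.9 FPKM in the Ebf2-EGFP- libraries (log2 fold change 1.42 ± 0.28, adjusted p = 0.000591), at E13.5 at 108 and 125 against 13.1 and 29.7 FPKM (log2 fold change 2.49 ± 0.28, adjusted p = 2.07e-05) and at E15.5 at 183 and 147 against 44.3 and 37.8 FPKM (log2 fold change 1.98 ± 0.28, adjusted p = 0.000145). The rise from E11.5 to E15.5 was 4.45 ± 0.28, adjusted p = 1.68e-07 in Ebf2-EGFP+ cells and 3.90 ± 0.28, adjusted p = 2.98e-07 in Ebf2-EGFP- cells, and the change of the difference did not pass the test (0.55 ± 0.40, adjusted p = 0.245). Cdh7, a type II cadherin, was also higher at each stage, with 3.67 and 4.17 against 1.27 and 1.22 FPKM, 4.57 and 2.79 against 0.88 and 0.502 FPKM and 3.26 and 5.02 against 0.448 and 0.426 FPKM at the 3 stages (E15.5 log2 fold change 1.82 ± 0.21, adjusted p = 3.86e-05). Cdh18, a further type II cadherin, was near 0 in Ebf2-EGFP- cells throughout, and was higher at E11.5 (1.04 and 1.25 against 0.123 and 0.0876 FPKM) and E15.5 (1.28 and 1.98 against 0.0678 and 0.176 FPKM, log2 fold change 1.22 ± 0.13, adjusted p = 2.04e-05). Cdh11, a cadherin of mesenchyme and of neurons, showed no call at E11.5 (14.4 and 18.1 against 20.4 and 19.1 FPKM) and was higher at E13.5 (18.8 and 13.6 against 5.07 and 4.96 FPKM, log2 fold change 1.503 ± 0.20, adjusted p = 5.75e-05) and E15.5. Its level in Ebf2-EGFP- cells fell by 1.71 ± 0.20 on the log2 scale, adjusted p = 9.54e-06, and there the summed level of the 6 meninges or fibroblast markers was 112 to 131 FPKM at E11.5 and 3.46 to 3.91 FPKM at E15.5, whose part in this was not tested. Cdh8, a type II cadherin of projection neurons, was lower at E13.5 (11.7 and 9.32 against 26.3 and 23.7 FPKM, log2 fold change -1.18 ± 0.32, adjusted p = 0.00543) and at E15.5 (8.01 and 19.7 against 24.3 and 35.3 FPKM), where the call was lost without Ebf2-EGFP+ replicate 1 (-0.55, adjusted p = 0.0927) or Ebf2-EGFP- replicate 2 (-0.89, adjusted p = 0.06).

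Other cadherins differed mainly at E11.5. Cdhr1, a protocadherin-like gene named as a cadherin-related protein and known from photoreceptors and olfactory bulb output neurons, stood at 5.84 and 3.39 FPKM in the Ebf2-EGFP+ libraries and 0.0986 and 0.0636 FPKM in the Ebf2-EGFP- libraries at E11.5 (log2 fold change 2.34 ± 0.20, adjusted p = 1.6e-06) and at 0.0632 and 0.033 against 0.0419 and 0.00643 FPKM at E15.5. It fell by 2.39 ± 0.20 on the log2 scale, adjusted p = 1.31e-06 in Ebf2-EGFP+ cells, the largest fall of any member there. Its call at E13.5 was lost without Ebf2-EGFP+ replicate 1 (0.22, adjusted p = 0.363). Of 3 markers of olfactory bulb projection neurons, Eomes and Nrp1 are in the table, and they went opposite ways in Ebf2-EGFP+ cells. Eomes fell there from 142 and 139 FPKM at E11.5 to 9.24 and 4.46 FPKM at E15.5. Nrp1 rose there from 11.6 and 14.1 to 43.7 and 29.3 FPKM. In Ebf2-EGFP- libraries Eomes rose from 8.08 and 11.7 to 97.5 and 60.4 FPKM, and Nrp1 from 4.13 and 4.40 to 81.9 and 69.3 FPKM. Both are also expressed in cortical cells, and their part in the result was not tested. Cdh5, the cadherin of endothelial junctions, was lower at E11.5 (0.175 and 0.185 against 2.29 and 1.55 FPKM, log2 fold change -1.30 ± 0.18, adjusted p = 3.71e-05). The endothelial markers Cldn5 and Kdr, the only 2 of 9 in the table, summed to 0.147 to 0.35 FPKM in Ebf2-EGFP+ and 2.84 to 4.9 FPKM in Ebf2-EGFP- libraries at that stage, and Cldn5 was at 0 in 1 Ebf2-EGFP+ library. Their part in the Cdh5 difference was not tested. Cdh22 was lower at E11.5 (3.29 and 2.84 against 6.81 and 6.98 FPKM, log2 fold change -0.96 ± 0.22, adjusted p = 0.00143) and fell in Ebf2-EGFP- cells to 0.996 and 0.631 FPKM at E15.5 (fell by 2.13 ± 0.22 on the log2 scale, adjusted p = 3.21e-06).

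Protocadherins, many of which bind like with like, were mostly higher at first. Of 11, 8 were higher and 1 lower at E11.5, 7 higher and 2 lower at E13.5, and 3 in either direction at E15.5. At E11.5 and E13.5, 72.7% and 63.6% were higher, against 36.8% and 32.1% of all genes. The lower share was 9.09% and 18.2%, against 44.9% and 43.5%. At E15.5 the 27.3% in each direction was near the 25.8% higher and 31.6% lower of all genes. Pcdh9 stood at 15.9 and 16.8 against 3.15 and 3.1 FPKM at E11.5 (log2 fold change 2.07 ± 0.18, adjusted p = 1.6e-06) and at 14.8 and 12.5 against 7.65 and 10.9 FPKM at E15.5 (log2 fold change 0.52 ± 0.18, adjusted p = 0.0268). That last call was lost without replicate 1 of either population (0.41, adjusted p = 0.15 and 0.29, adjusted p = 0.245). Pcdh20, at low levels, was higher throughout, with 1.28 and 1.02 against 0.143 and 0.155 FPKM, 1.34 and 1.15 against 0.159 and 0.196 FPKM and 2.91 and 1.46 against 0.334 and 0.393 FPKM at the 3 stages. The X-linked Pcdh11x was among the largest differences at E15.5 (1.12 and 4.39 against 0.24 and 0.261 FPKM, log2 fold change 1.44 ± 0.34, adjusted p = 0.00367), although its Ebf2-EGFP+ libraries differ from each other by several fold. Its calls at E11.5 and E13.5 were lost without any single library of the 4 compared and without 3 of the 4 in turn, and that at E13.5 also without any E11.5 library and in the fit without trend (adjusted p up to 0.0704 and 0.307). Pcdh15, a protein of hair cell tip links, Pcdh17 and Pcdh7 were higher at E11.5 by 1.45, 1.39 and 1.23, and none of them was called at E15.5, where Pcdh17 was higher with the replicate block (adjusted p = 0.0354). After median-of-ratios scaling Pcdh17 and Pcdh7 were higher at E15.5, and with a pseudocount of 0.1 Pcdh15 was. Pcdhgc3, of the gamma cluster, was the most abundant and was higher at E11.5 (59.5 and 59 against 36 and 31.9 FPKM) and E13.5. Gamma protocadherins share their constant exons, so its values are uncertain. Pcdh8 rose by 2.12 ± 0.16, adjusted p = 5.1e-07 in Ebf2-EGFP+ and 2.59 ± 0.16, adjusted p = 9.36e-08 in Ebf2-EGFP- cells, and was at 4.39 and 3.73 against 3.9 and 3.83 FPKM at E11.5 and 23.8 and 18.5 against 28.5 and 28.2 FPKM at E15.5. Pcdh18 was lower at all 3 stages, with 2.75 and 3.57 FPKM in the Ebf2-EGFP+ libraries and 12.7 and 11.2 FPKM in the Ebf2-EGFP- libraries at E11.5 (log2 fold change -1.64 ± 0.19, adjusted p = 1.17e-05) and 0.659 and 1.1 against 3.2 and 4.08 FPKM at E15.5 (log2 fold change -1.31 ± 0.19, adjusted p = 0.000173).

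Giant cadherins serve planar polarity and long-range cell contact. The 3 Celsr genes, vertebrate relatives of flamingo, differed from each other. Celsr1 (chr15:85898929-86033777, minus strand), which is known from neural progenitors, was not called at E11.5, at 14.1 and 15.48 FPKM in the Ebf2-EGFP+ libraries and 18 and 16.2 FPKM in the Ebf2-EGFP- libraries (log2 fold change -0.19 ± 0.18, adjusted p = 0.323). It was lower at E13.5 (12.9 and 13.9 against 46.8 and 44.8 FPKM, log2 fold change -1.70 ± 0.18, adjusted p = 1.23e-05). At E15.5 it had the most negative difference of any member at any stage, 4.95 and 3.29 against 40.6 and 32.3 FPKM (log2 fold change -2.88 ± 0.18, adjusted p = 7.34e-07). It fell by 1.65 in Ebf2-EGFP+ cells and rose by 1.04 in Ebf2-EGFP- cells. Celsr3, needed for axon tracts, was instead higher at E11.5 (31.2 and 38.7 against 6.86 and 8.98 FPKM, log2 fold change 2.01 ± 0.22, adjusted p = 7.21e-06) and at E15.5 was at 29.4 and 24.9 against 22.8 and 29.7 FPKM, with overlapping libraries. Celsr2, the most abundant giant cadherin, was higher at E11.5 (57.4 and 66.9 against 31.8 and 30.9 FPKM) and at E15.5 stood at 51.7 and 37.2 against 43.2 and 40.0 FPKM (log2 fold change 0.08 ± 0.19, adjusted p = 0.745). Fat1, a large cadherin of the progenitor surface, was lower at all 3 stages, with 12.8 and 13.4 against 41.5 and 31.7 FPKM, 3.63 and 3.01 against 18.5 and 14.1 FPKM and 1.39 and 2.4 against 7.55 and 7.56 FPKM, and fell in both populations, by 2.31 in Ebf2-EGFP+ and 2.12 in Ebf2-EGFP- cells. Fat3 was higher at each stage (E13.5 21.1 and 26.2 against 7.71 and 9.01 FPKM, log2 fold change 1.39 ± 0.17, adjusted p = 2.99e-05). Fat4 and Dchs1 encode a receptor and ligand that bind each other between cells. Dchs1 was higher at E11.5 (52.4 and 57.1 against 24.4 and 23.2 FPKM, log2 fold change 1.17 ± 0.16, adjusted p = 3.66e-05), the stage at which Fat4 was lower (8.7 and 11.496 against 17.7 and 15.3 FPKM, log2 fold change -0.67 ± 0.21, adjusted p = 0.00999). Dchs1 was called higher at E13.5 only after median-of-ratios scaling. Fat4 was higher at E13.5 (39.2 and 49.5 against 12.2 and 14.1 FPKM, log2 fold change 1.67 ± 0.21, adjusted p = 3.45e-05) and E15.5 (38.9 and 28.4 against 15.3 and 19.9 FPKM, log2 fold change 0.89 ± 0.21, adjusted p = 0.00325). The lower call of Fat4 at E11.5 was lost after median-of-ratios scaling (-0.42, adjusted p = 0.117) and without Ebf2-EGFP+ replicate 1 (-0.48, adjusted p = 0.1) or Ebf2-EGFP- replicate 1 (-0.57, adjusted p = 0.0697), while its rise in Ebf2-EGFP+ cells (1.64 ± 0.21, adjusted p = 2.33e-05) kept its call in every alternative.

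Among the catenins, which anchor cadherins to actin, the epithelial and the neural alpha-catenin stood on opposite sides. Ctnna1, alpha-E-catenin, was lower at each stage, with 30.8 and 30.1 FPKM in the Ebf2-EGFP+ libraries and 87.2 and 75.6 FPKM in the Ebf2-EGFP- libraries at E11.5 (log2 fold change -1.39 ± 0.17, adjusted p = 1.85e-05), 13.7 and 10.7 against 61.2 and 52.2 FPKM at E13.5 (log2 fold change -2.13 ± 0.17, adjusted p = 3.66e-06), then 6.42 and 6.28 against 33.5 and 25.1 FPKM at E15.5 (log2 fold change -2.03 ± 0.17, adjusted p = 4.35e-06). It fell in both populations, by 2.10 in Ebf2-EGFP+ and 1.45 in Ebf2-EGFP- cells. Ctnna2, alpha-N-catenin, was higher at E11.5, with 99.5 and 85.8 FPKM in the Ebf2-EGFP+ libraries and 22.6 and 20.8 FPKM in the Ebf2-EGFP- libraries (log2 fold change 2.04 ± 0.17, adjusted p = 1.2e-06), and at E15.5 was at 96 and 105 against 67.2 and 85.9 FPKM (log2 fold change 0.40 ± 0.17, adjusted p = 0.0637), a difference that passed with the replicate block (adjusted p = 0.00861) and after median-of-ratios scaling. Its Ebf2-EGFP+ level showed no call from E11.5 to E15.5 (0.12 ± 0.17, adjusted p = 0.547), and its Ebf2-EGFP- level rose by 1.76 ± 0.17, adjusted p = 2.15e-06. Ctnnd2, the neural delta-catenin, was higher at all 3 stages, with differences of 0.76, 0.65 and 0.82. Ctnnal1, alpha-catulin, a relative of alpha-catenin, was lower at all 3, between E11.5 (2.31 and 2.67 against 9.64 and 10.1 FPKM) and E15.5 (0.493 and 0.621 against 2.08 and 1.84 FPKM).

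The nectins, immunoglobulin proteins that pair with each other across junctions, showed a like contrast. Pvrl3, the gene of nectin-3, stood at 6.42 and 7.05 FPKM in the Ebf2-EGFP+ libraries and 38.4 and 36.9 FPKM in the Ebf2-EGFP- libraries at E11.5, the most negative difference of any member at that stage (log2 fold change -2.32 ± 0.19, adjusted p = 1.01e-06). Pvrl1, the gene of nectin-1, a partner that nectin-3 binds, stood at 40.5 and 40.6 FPKM in the Ebf2-EGFP+ libraries and 14.6 and 12.7 FPKM in the Ebf2-EGFP- libraries and was higher (log2 fold change 1.51 ± 0.17, adjusted p = 9.14e-06). Neither was called at E15.5, where Pvrl1 was at 10.8 and 7.51 against 8.04 and 7.97 FPKM and Pvrl3 at 5.27 and 6.46 against 7.19 and 8.18 FPKM, though with the replicate number as a block Pvrl3 was still lower (adjusted p = 0.0277). Pvrl1 fell mainly in Ebf2-EGFP+ cells, by 2.05 ± 0.17 on the log2 scale, adjusted p = 1.07e-06, against 0.70 in Ebf2-EGFP- cells, a change of the difference of -1.35 ± 0.24, adjusted p = 0.000676. Pvrl3 fell in Ebf2-EGFP- cells by 2.15 ± 0.19 on the log2 scale, adjusted p = 9.77e-07, and in Ebf2-EGFP+ cells its change was -0.18 ± 0.19, adjusted p = 0.401 (change of the difference 1.98 ± 0.26, adjusted p = 0.000108).

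The Igsf and Kirrel genes, immunoglobulin proteins of varied roles, were divided as well. Igsf11 (chr16:38892671-39027159, plus strand), a homophilic adhesion protein of synapses and glia, was lower at each stage, with 0.812 and 1.03 FPKM in the Ebf2-EGFP+ libraries and 5.96 and 5.11 FPKM in the Ebf2-EGFP- libraries at E11.5 (log2 fold change -1.77 ± 0.21, adjusted p = 1.15e-05), 0.517 and 0.22 against 6.76 and 4.25 FPKM at E13.5 (log2 fold change -2.23 ± 0.21, adjusted p = 6.42e-06), then 0.162 and 0.0632 against 2.46 and 1.71 FPKM at E15.5 (log2 fold change -1.46 ± 0.21, adjusted p = 0.000128). Igsf21, a ligand of neurexin-2, was higher at each stage, with 24.1 and 24.6 against 2.91 and 3.23 FPKM at E11.5 (log2 fold change 2.64 ± 0.21, adjusted p = 8.66e-07) and 35.7 and 24.2 against 17.5 and 12.3 FPKM at E15.5. Igsf8 (chr1:172261641-172319841, plus strand), a partner of tetraspanins and the family's most abundant gene, changed sides. It was at 102 and 129 FPKM in the Ebf2-EGFP+ libraries and 29 and 35 FPKM in the Ebf2-EGFP- libraries at E11.5 (log2 fold change 1.81 ± 0.27, adjusted p = 6.62e-05), at 73.3 and 56.3 against 133 and 105 FPKM at E13.5 (log2 fold change -0.86 ± 0.27, adjusted p = 0.012), then 47 and 32.7 against 128 and 73 FPKM at E15.5 (log2 fold change -1.28 ± 0.27, adjusted p = 0.00184). The change of its difference was -3.09 ± 0.38, adjusted p = 6.38e-05, with a fall of 1.52 in Ebf2-EGFP+ and a rise of 1.57 in Ebf2-EGFP- cells. Its E13.5 call was lost without Ebf2-EGFP+ replicate 2 (-0.68, adjusted p = 0.0931) or Ebf2-EGFP- replicate 1 (-0.69, adjusted p = 0.0903). The summed intermediate progenitor markers given above also changed sides between E11.5 and E15.5, but of the 3 only Eomes had calls on both sides. At E11.5, Neurog2 (log2 fold change 0.68, adjusted p = 0.14) and Neurog1 (0.86, adjusted p = 0.0606) were not called. The part of these markers in the results of Igsf8 and Negr1 was not tested. The nephrin relatives Kirrel and Kirrel3 stood apart. Kirrel was lower at E11.5 (3.56 and 4.64 against 11.7 and 12.1 FPKM, log2 fold change -1.35 ± 0.20, adjusted p = 6.14e-05), and Kirrel3, which is known from axon sorting, was higher at all 3 stages, between E11.5 (6.48 and 6.11 against 2.29 and 2.26 FPKM) and E15.5 (35.3 and 29.2 against 16.2 and 14.7 FPKM) (log2 fold change 1.01 ± 0.21, adjusted p = 0.00155).

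**Figure D4:**
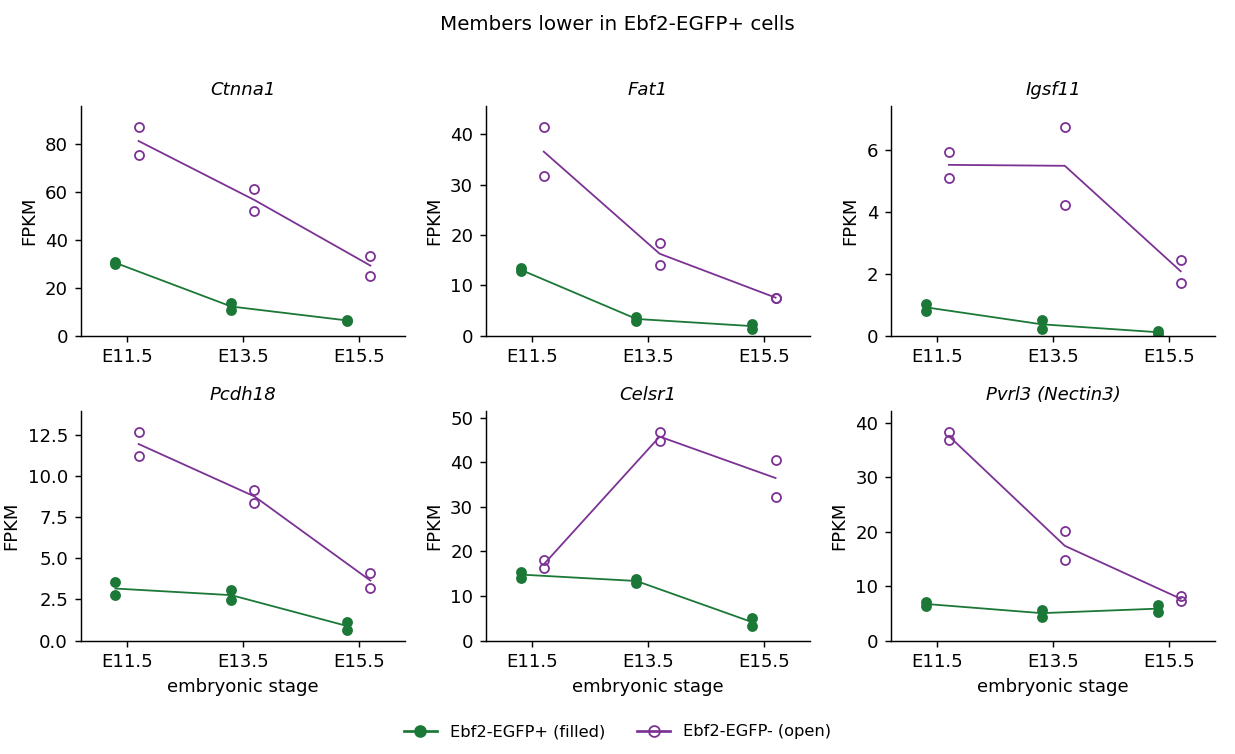
FPKM (y axes, from 0, a scale for each gene) of 6 members that were lower in Ebf2-EGFP+ cells at 1 stage or more. Points are libraries (filled Ebf2-EGFP+, open Ebf2-EGFP-) and lines join group means. Ctnna1, Fat1, Igsf11 and Pcdh18 have the open points on top at each stage, Celsr1 from E13.5 on, and the lines of Pvrl3 lie closest at E15.5.

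Over the 3 stages, 22 members (31.4%) were higher at every stage, against 14.6% of all genes. These were Cadm3, Cdh13, Cdh7, Chl1, Ctnnd2, Fat3, Igsf21, Kirrel3, L1cam, Lrfn5, Lrrtm1, Lrrtm3, Lrrtm4, Ncam2, Nfasc, Nlgn1, Nrcam, Opcml, Pcdh11x, Pcdh20, Pcdh9 and Slitrk1, and 16 of them kept all 3 calls in every alternative. The other 6 (Chl1, Lrrtm3, Nfasc, Pcdh11x, Pcdh9 and Slitrk1) lost a call without 1 or more of the libraries compared, Slitrk1 at E15.5 for instance without Ebf2-EGFP+ replicate 1 (0.31, adjusted p = 0.248) and Lrrtm3 at E11.5 without Ebf2-EGFP+ replicate 2 (0.45, adjusted p = 0.22). A further 15 members (21.4%) were higher at E11.5 and E13.5 but not called at E15.5, against 9.22% of all genes, and 7 (10%) were higher at E11.5 alone, against 7.66%. With the replicate block, Ctnna2, Lrfn1, Lrfn3 and Pcdh17 were higher at E15.5 too. After median-of-ratios scaling, Ctnna2, Lrfn1, Ncam1, Pcdh17, Pcdh7 and Pcdhgc3 were higher at E15.5. Cdh10, Cdh12, Dchs1 and Pcdh15 of the 7 were then also higher at E13.5. Only 5 members (7.14%) were lower at every stage, against 21.8% of all genes, and these, Ctnna1, Ctnnal1, Fat1, Igsf11 and Pcdh18, kept their 3 calls in every alternative. The libraries in which they were low were those in which all 8 radial glia and all 5 cell cycle markers were low, whose part in the result was not tested.

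Within each population, the levels at E15.5 were also set against those at E11.5. In Ebf2-EGFP- cells 40 of 70 rose (57.1%), against 37.7% of all genes, and 14 fell (20%), against 47.6%, with a median of 0.91 beside -0.32 over all genes. In Ebf2-EGFP+ cells 29 rose (41.4%), against 33.3%, and 21 fell (30%), against 42.1%, with medians of 0.15 and -0.18. The difference between the populations fell for 33 members (47.1%), against 27.7% of all genes, and rose for 10 (14.3%), against 32%, with medians of -0.59 and 0.17. These comparisons share the E11.5 and E15.5 libraries with those at each stage. The largest rises in Ebf2-EGFP+ cells were those of Cdh13, Opcml and Cadm2, and the largest falls those of Cdhr1, Fat1 and Ctnna1, among genes whose libraries did not overlap. In Ebf2-EGFP- cells the same rule gave Cdh13, Chl1 and Opcml as rising and Kirrel, Pvrl3 and Cdh22 as falling. Kirrel fell there by 2.28 ± 0.20 on the log2 scale, adjusted p = 1.01e-06, from 11.7 and 12.1 to 2 and 1.36 FPKM. In the plot of both changes, Lsamp, Fat4 and Cadm1 lie above the others with hardly any change in Ebf2-EGFP- cells (-0.11, 0.08 and 0.18, none called, though Cadm1 was called as rising after median-of-ratios scaling), and Negr1, Igsf8 and Celsr1 lie where Ebf2-EGFP- rose and Ebf2-EGFP+ fell.

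**Figure D5:**
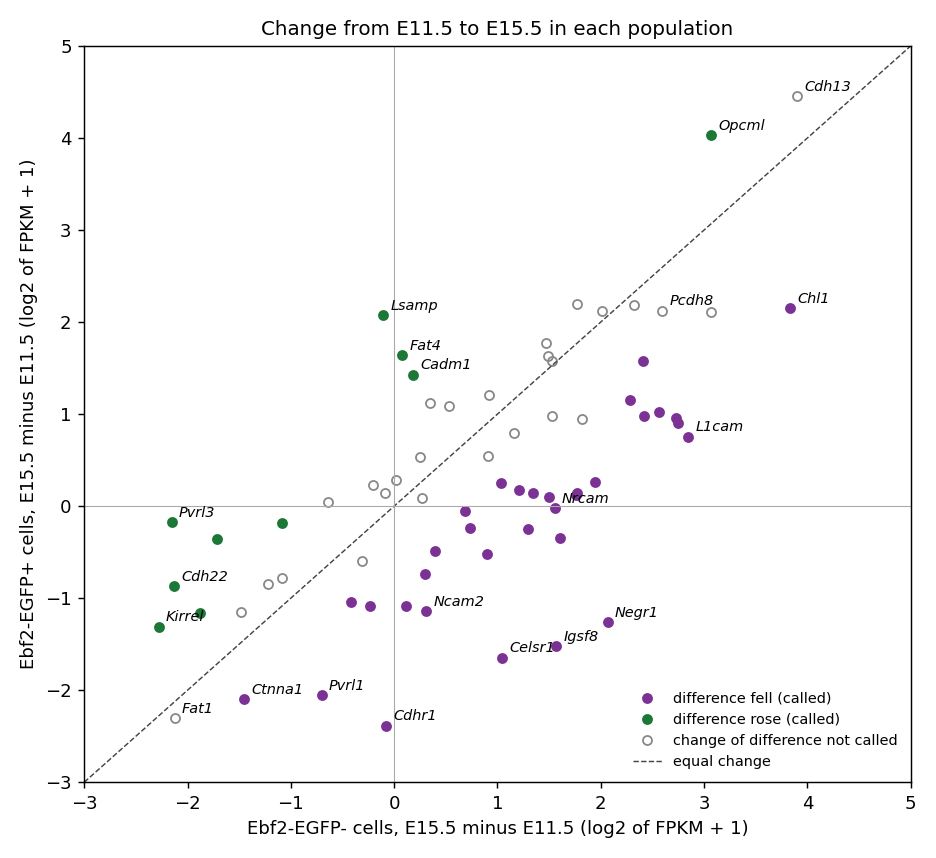
Change from E11.5 to E15.5 in Ebf2-EGFP- cells (x axis) and Ebf2-EGFP+ cells (y axis), both log2 of FPKM + 1, for the 70 members (points). Filled points are genes whose difference between the populations changed (purple fell, green rose), open points are not called, and the dashed line marks equal change. Cdh13 and Opcml lie at the upper right, and 33 filled points lie below the line and 10 above it.

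Partners of these proteins outside the member names were read from a list of 55, of which 38 are in the table. Of these, 23 were higher and 8 lower at E11.5, 25 higher and 9 lower at E13.5, and 19 higher and 7 lower at E15.5, with medians of 0.74, 0.70 and 0.43. Of all genes, 36.8%, 32.1% and 25.8% were higher and 44.9%, 43.5% and 31.6% lower at the 3 stages. The ankyrin gene Ank3, whose product holds L1 family proteins, stood at 53.9 and 56.5 against 6.33 and 5.78 FPKM at E11.5 (log2 fold change 2.99). The 8 junction genes of the list were split at E11.5. Jup, the gene of plakoglobin, was higher with 10.9 and 11.9 against 3.33 and 3.17 FPKM (log2 fold change 1.54), as were Pard3 (log2 fold change 0.74) and Mllt4, the gene of the nectin partner afadin (log2 fold change 0.48). The other 5, Tjp1, Vcl, Plekha7, Jam2 and Jam3, were lower, Tjp1 with 8.37 and 10.1 against 31.5 and 27.6 FPKM (log2 fold change -1.58). Plekha7, a protein of the zonula adherens, had 0.857 and 1.08 against 7.99 and 8.75 FPKM (log2 fold change -2.25). Of the 38, the difference between the populations fell for 18 and rose for 8 from E11.5 to E15.5. Among all genes it fell for 27.7% and rose for 32%.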

How the data were processed

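The authors captured polyadenylated RNA, aligned reads to mm10 (the assembly GRCm38) with TopHat 2.0.8b and deposited FPKM from Cufflinks 2.2.0, which scales fragments by mapped depth and transcript length. Whether counting used strand is not given in the sources used here, so overlapping and antisense genes cannot be separated. The deposited fold and p-value columns of the authors, and the table of lncRNAs, were not used. The test was limma 3.58.1 (R 4.3.3) with a trend and 6 group means, on log2(FPKM + 1). The pseudocount of 1 understates changes of low genes. P-values were two-sided and Benjamini-Hochberg adjusted over 4859 genes, which were listed because they differed in these libraries. Members were taken by symbol, and the members and lists were chosen with earlier results of these data known. Genes named by rule were the 4 largest differences in each direction at a stage, members at least 1 on the log2 scale apart at all 3 stages, opposite calls, the 3 largest changes in each population, and the most abundant of each of the 10 families, 33 in all. Other members named were chosen after their values were seen. The labels give both populations of a stage the same replicate numbers. Libraries with the same number deviated together (correlation 0.43, 0.53 and 0.43 by stage), so a replicate block was tried. Depth is unknown from FPKM. Gene positions are from GENCODE M21. Tests were checked on simulated data.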

Additional observations from a re-analysis of the deposited data

Results flagged for a closer look

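Of the 33 members the report names by rule, 23 had a difference between the populations that was not constant between E11.5 and E15.5, by the interaction term of the limma fit at an adjusted p under 0.05. Of all genes, the difference rose for 32% and fell for 27.7%. The naming rule itself took opposite calls and the largest changes between these stages, so the count of 23 is not a finding about the members. All values are changes of the Ebf2-EGFP+ minus Ebf2-EGFP- difference on the scale log2(FPKM + 1), E15.5 minus E11.5. The change was negative for Negr1 (-3.33), Igsf8 (-3.09), Celsr1 (-2.69), Cdhr1 (-2.31), L1cam (-2.09), Lrfn5 (-1.78), Chl1 (-1.68), Ctnna2 (-1.65), Nrcam (-1.57), Ncam1 (-1.55), Ncam2 (-1.45), Pvrl1 (-1.35), Cadm4 (-1.13), Celsr2 (-0.89), Nlgn2 (-0.78) and Ctnna1 (-0.64). It was positive for Lsamp (2.18), Pvrl3 (1.98), Fat4 (1.56), Cdh22 (1.26), Kirrel (0.97), Opcml (0.96) and Ctnnal1 (0.71). The 4 with a call on opposite sides at the 2 stages were Negr1, Igsf8, Lsamp and Fat4. Fat4 and Lsamp crossed from lower to higher, and Negr1 and Igsf8 from higher to lower. Among those with a negative change, a fall in Ebf2-EGFP+ cells was also called for Celsr1, Pvrl1, Cdhr1, Negr1, Igsf8, Ncam2, Ctnna1 and Celsr2 (that of Celsr2 not after median-of-ratios scaling). Among those with a positive change, Cdh22, Ctnnal1 and Kirrel had such a fall. The smallest of the 23 changes of the difference were also the least stable: those of Ctnna1, Ctnnal1, Celsr2, Nlgn2, Kirrel and Opcml were lost without at least 1 library. With a pseudocount of 0.1 the changes of Ctnnal1 (0.29, adjusted p = 0.498), Kirrel (0.90, adjusted p = 0.0727) and Opcml (0.19, adjusted p = 0.671) were lost as well.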

How the results depend on the processing

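In each alternative run, the 12 counts of called members stayed within 1.5 times their main value, and none of the 302 called results of single members reversed direction. Leaving out each library in turn gave 41 to 47 higher and 9 to 12 lower at E11.5, 31 to 44 and 10 to 13 at E13.5, 22 to 30 and 9 to 12 at E15.5, 8 to 14 risen and 26 to 35 fallen differences, 27 to 29 rising and 18 to 22 falling in Ebf2-EGFP+ cells, and 39 to 42 and 12 to 14 in Ebf2-EGFP- cells. In these fits a group left with 1 library is assumed to vary like the others. The fit with the replicate block kept all 302 calls, with 47 members higher at E11.5, and added 25. With it, 46 were higher and 13 lower at E13.5, 33 and 16 at E15.5, and 13 differences rose and 37 fell. The fit of the compared groups only lost 19 of 302 calls, median-of-ratios scaling 9, a pseudocount of 0.1 lost 6 and moderation without trend 2. Of the 286 calls on genes with a mean of at least 1 FPKM, none was lost under that filter. The causes were not tested. The values carry no fragment counts, so depth is unknown and 2 libraries a group set the precision. Within a stage, 2 libraries against 2 allow no exact test to pass.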
